A study of Mus musculus with 6 samples.

Results

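Collagen genes were taken as every gene whose symbol in the deposited feature list reads Col, a number, a and a single digit. The rule found 44 genes among 32285, and each of the 44 had unique molecular identifiers (UMIs) in all 6 libraries. The series measured single nuclei of hippocampi from aged mice, 18 to 20 months old, in 2 groups of 3 libraries. The sevoflurane group inhaled 2% sevoflurane with 60% oxygen for 6 h at 1 L/min, and the oxygen group inhaled 60% oxygen alone at the same flow for the same time. All animals were therefore aged and all breathed raised oxygen. Sevoflurane is an inhaled general anaesthetic. The labels name no strain and do not say how many animals entered a library or whether libraries came from separate animals, so p-values measure the spread between these 6 libraries.

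Collagens are extracellular proteins in which 3 chains wind into a triple helix. Fibrillar types form cables, type IV builds the sheet-like network of basement membranes around vessels, type VI forms beaded filaments, type VIII forms short-chain networks, and fibril-associated types decorate the cables. A further group spans the cell membrane. Brain tissue has little fibrillar collagen outside the meninges and vessel walls, while type IV collagen lines its capillaries, where endothelial cells, pericytes and astrocyte endfeet meet. Neurons use several fibril-associated and membrane-spanning collagens at synapses.

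The pair Col4a1 and Col4a2, which encode the main type IV chains, lies head to head and starts from the same stretch of DNA, shown here because both genes were called together in endothelial-like nuclei. In GENCODE on GRCm38.p6 (mm10), exon 1 of Col4a1 spans bases 11312516 to 11312826 of chromosome 8 on the minus strand, and exon 1 of Col4a2 spans bases 11312805 to 11313114 on the plus strand. The first exons thus overlap over 22 bases that are 5′ untranslated region in both genes and are printed in capitals within 30 bases of the plus strand, chr8:11312801-11312830.
Col4a1 and Col4a2 shared start: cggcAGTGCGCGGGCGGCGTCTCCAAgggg
RefSeq promoter windows of 300 bases (250 before and 50 after a start) were at hand for 35 of the 44 genes. On either strand, GGGCGG, the GC box, was found in 22 of the 35, against 35.7% of all 32851 windows. CCAAT was found in 13 of the 35 against 37.4%, TATAAA in 5 against 13.6%, ACGTG in 5 against 19.6% and TGANTCA in 1 against 7.81%. The Col4a1 window held GGGCGG once and CCAAT once, and the Col4a2 window, which overlaps it, held GGGCGG 3 times and CCAAT once. These are letter matches in a window and not measured binding sites.

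The files held 53824 barcodes, of which 53287 passed the filters and 51874 remained after 1413 called doublets were removed. Median depth was 4664 to 6090 UMIs per nucleus across libraries, and deposited totals were 56334621 to 72636984 UMIs. Collagen genes made up 0.0540% to 0.0678% of UMIs in the oxygen libraries and 0.0583% to 0.0658% in the sevoflurane libraries. Any pair of libraries shared 15 to 33 barcode sequences. Sex-linked genes went against the label in 3 of 6 libraries, and a female pattern was present in 1 sevoflurane library and in no oxygen library. That library was sevoflurane library 1, which was labelled male. Library 3 of each group was labelled female and had a male pattern. In the group values below, libraries are given in the order 1 to 3. The 17 named classes rest on markers, and "like" marks that. Choroid plexus-like nuclei numbered 60, 16 and 99 in the oxygen libraries and 0 in each sevoflurane library, so every choroid value below comes from oxygen alone. Clusters without a clear name held 8473 nuclei, 4655 of them in a cluster with a median of 801 UMIs.

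Levels are given as CPM, the UMIs of a gene relative to all UMIs of a class in a library after scaling between libraries, as mean and SD over libraries with at least 10 nuclei of that class. The map covered 16 classes and is a description without a test, since the classes were built from the same nuclei, although collagen genes were left out of the clustering. In at least 1 class, 35 of the 44 genes reached a mean of 20 CPM, and 9 stayed below it everywhere, with highest class means of 2.02 to 13.9 CPM. Vascular leptomeningeal-like nuclei, fibroblast-type cells of the meninges and large vessels, held the highest level of 17 of the 35 genes and had 24 genes at 20 CPM or more. Choroid plexus-like nuclei held the highest level of 5 genes, ependymal-like nuclei of 3, and inhibitory-like, endothelial-like, microglia-like and astrocyte-like nuclei of 2 each. CA3 pyramidal-like and Cajal-Retzius-like nuclei led for 1 gene each. Summed over all 44 genes, the mean was 3903 CPM in choroid plexus-like, 3275 CPM in vascular leptomeningeal-like and 1801 CPM in inhibitory-like nuclei, against 199 CPM in oligodendrocyte-like nuclei.

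**Figure D1:**
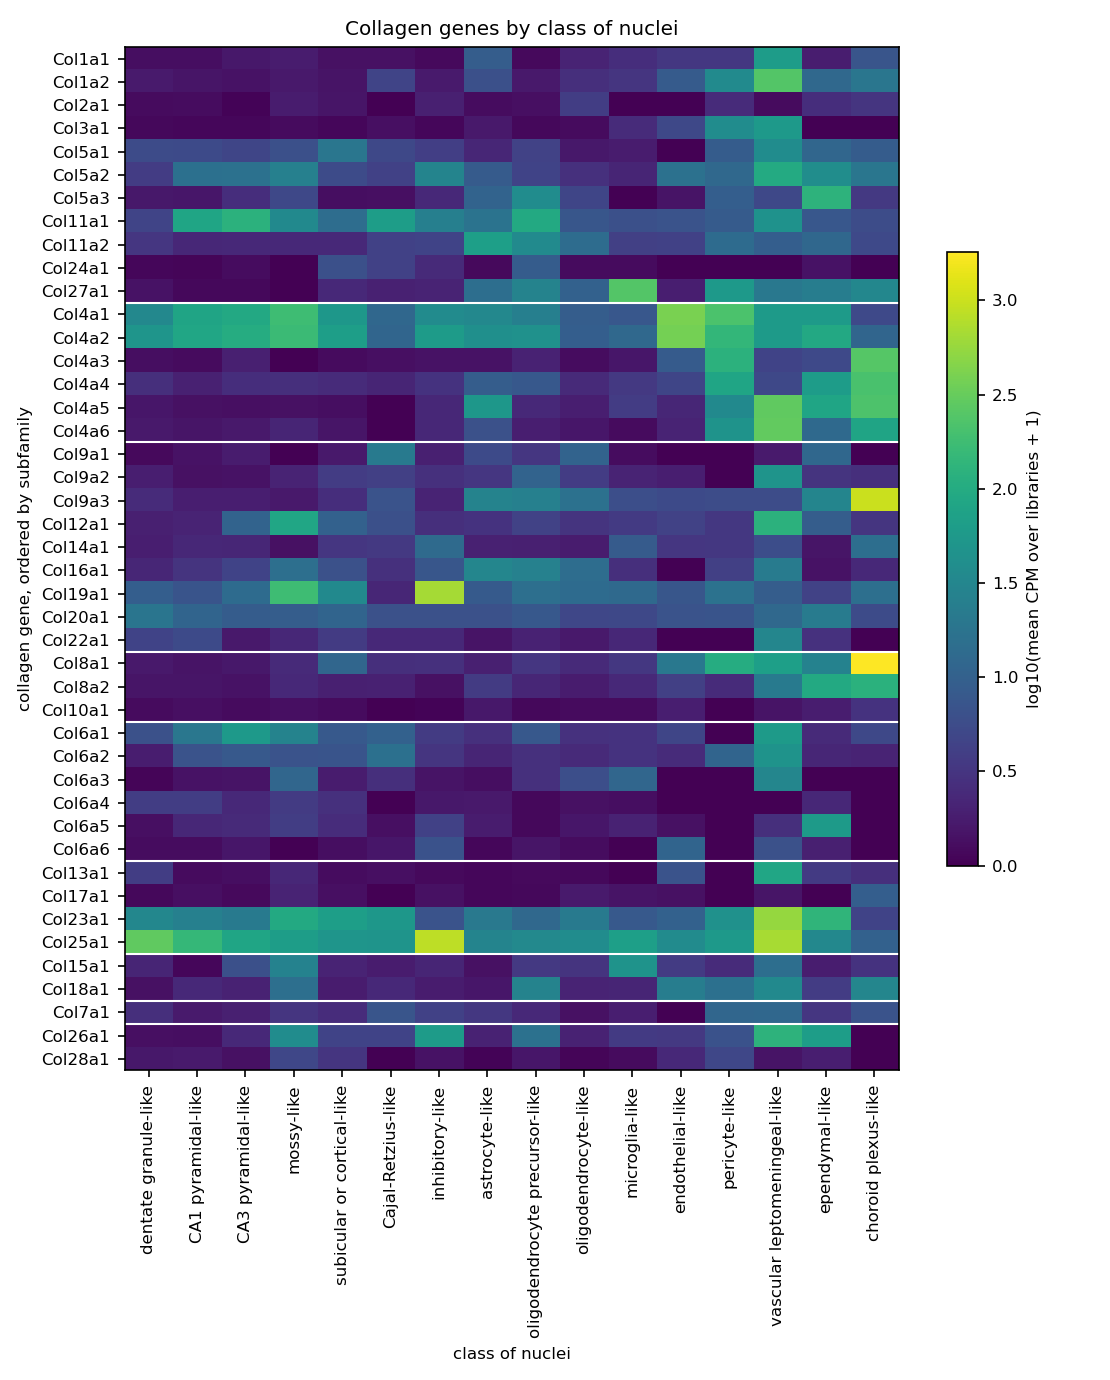
Heat map of the mean level of each of the 44 collagen genes (rows, grouped by subfamily between white lines) in 16 classes of nuclei (columns), coloured by log10(mean CPM over libraries + 1). Col1a1, Col1a2, Col3a1, Col5a1 and Col5a2 are brightest in the vascular leptomeningeal-like column, Col8a1 and Col9a3 in the choroid plexus-like column, and Col25a1 and Col19a1 in the inhibitory-like column.

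Among the 6 type IV genes, the 3 head-to-head pairs had 3 different maps. Col4a1 was highest in endothelial-like nuclei, with 693, 386 and 559 CPM after sevoflurane and 234, 309 and 244 CPM under oxygen, and Col4a2 was highest there too, with 429, 499 and 646 CPM against 201, 292 and 179 CPM. Both also reached 20 CPM in 12 of the 16 classes, and Col4a1 stood at 213 CPM ± 168 (SD, n = 6) in pericyte-like, 175 ± 37.8 in mossy-like and 91.4 ± 10.3 in CA3 pyramidal-like nuclei. A UMI of Col4a1 was seen in 51.6% of endothelial-like nuclei against 1.86% of oligodendrocyte-like nuclei, classes with similar median depths of 2409 and 2282 UMIs. The spread of endothelial-like and pericyte-like values overlapped for Col4a1, so these neighbours in the order cannot be separated. Choroid plexus-like nuclei had the lowest Col4a1 level of all classes, 4.24 CPM.

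Col4a3 and Col4a4, which form the network of the kidney filter and the inner ear together with Col4a5, were instead highest in choroid plexus-like nuclei. Col4a3 stood there at 200, 209 and 347 CPM, followed by pericyte-like nuclei at 123 CPM ± 59.0 (SD, n = 6). Col4a4 stood at 216, 136 and 281 CPM, followed by pericyte-like nuclei at 82.4 ± 43.0 and ependymal-like nuclei at 61.4 ± 16.1. In mossy-like nuclei no UMI of Col4a3 was found.

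Col4a5 and Col4a6 were highest in vascular leptomeningeal-like nuclei, at 292 CPM ± 152 and 296 CPM ± 90.03 (SD, n = 6). For Col4a5 the choroid plexus-like values of 183, 246 and 244 CPM lay within that range, while Col4a6 fell to 79.2 CPM ± 28.1 (SD, n = 3) there without overlap. Across the 16 classes Pearson's r of log2(mean CPM + 1) was 0.974 for Col4a1 with Col4a2, 0.882 for Col4a3 with Col4a4 and 0.928 for Col4a5 with Col4a6. Neighbouring genes of other types were less alike. The values were 0.569 for Col6a1 with Col6a2, 0.373 for Col3a1 with Col5a2 and -0.42 for Col9a1 with Col19a1. Col1a1 and Col1a2, the chains of type I collagen, lie on different chromosomes and had r of 0.854. Points of each r share libraries and depth, so these figures describe the map and carry no p.

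Fibrillar collagens, the cable formers, split between fibroblast-type nuclei and a few other classes. Col1a2 was highest in vascular leptomeningeal-like nuclei with 236, 154 and 260 CPM after sevoflurane and 228, 208 and 362 CPM under oxygen, above all other classes in every library. The same class led for Col5a2 at 96.5 CPM ± 38.6, Col1a1 at 61.4 ± 25.4, Col3a1 at 55.3 ± 33.4 and Col5a1 at 37.0 ± 19.1 (SD, n = 6 each). Col3a1 reached 36.9 ± 36.7 in pericyte-like nuclei and its values there overlapped those of the leptomeningeal class.

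Other fibrillar genes were highest in neurons, glia and the ventricle lining. Col27a1, which is known from cartilage, was highest in microglia-like nuclei at 218, 249 and 185 CPM after sevoflurane and 280, 293 and 218 CPM under oxygen, with no overlap with the next class, pericyte-like nuclei at 55.3 CPM. Col11a1 led in CA3 pyramidal-like nuclei at 123 CPM ± 90.05 (SD, n = 6), where single libraries ranged from 37.9 to 242 CPM, and stood at 94.7 ± 24.2 in oligodendrocyte precursor-like nuclei. Col11a2 was highest in astrocyte-like nuclei at 67.3 CPM ± 13.98, and Col5a3 in ependymal-like nuclei at 126 CPM ± 31.8. Col2a1, the main chain of cartilage fibrils, and Col24a1 stayed under 20 CPM in every class.

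Fibril-associated collagens carried the strongest neuronal signal beside Col25a1. Col19a1, which has a role in inhibitory synapse formation, stood in inhibitory-like nuclei at 621, 564 and 605 CPM after sevoflurane and 682, 709 and 725 CPM under oxygen. Its next class was mossy-like nuclei at 174 CPM ± 15.99, without overlap, and 65.6% of inhibitory-like nuclei held a UMI of Col19a1 against 1.99% of oligodendrocyte-like nuclei, whose median depth was 2282 UMIs against 8854.5. Col12a1 had 125 CPM ± 42.3 in vascular leptomeningeal-like and 83.9 ± 30.7 in mossy-like nuclei, and stayed below 20 CPM in the other 14 classes. Col9a3, a chain of cartilage type IX collagen, stood at 995, 924 and 1051 CPM in choroid plexus-like nuclei and at 29.3 CPM ± 5.90 in ependymal-like nuclei.

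Its partner chains did not follow Col9a3. Col9a2 was highest in vascular leptomeningeal-like nuclei at 47.8 CPM ± 33.1, and Col9a1 in Cajal-Retzius-like nuclei at 54.1, 40.5 and 28.4 CPM after sevoflurane and 0 CPM in each oxygen library, where the class held only 21 to 47 nuclei. The class joined 2 clusters, and cluster 31, led by Ebf2, Ebf3 and Corin with 3 of 8 markers, gave 50, 62 and 33 of its nuclei after sevoflurane and 1, 4 and 0 under oxygen, so cluster and treatment cannot be told apart for Col9a1. Col16a1 was highest in astrocyte-like nuclei at 30.5 CPM ± 10.3, Col20a1 in ependymal-like nuclei at 21.4 ± 10.3, and Col22a1, a collagen of tissue junctions, in vascular leptomeningeal-like nuclei at 30.5 ± 18.3. On the scale of CPM per kilobase of gene span, Col9a3 in choroid plexus-like nuclei was at 40.6 and Col8a1 at 13.9, against 6.58 for Col1a2 in leptomeningeal-like and 3.54 for Col4a1 in endothelial-like nuclei.

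Of the membrane-spanning collagens, Col25a1 and Col23a1 were widespread and Col13a1 was not. Col25a1, a neuronal collagen that binds amyloid-beta, was at 20 CPM or more in 15 of the 16 classes, all but choroid plexus-like nuclei. It led in inhibitory-like nuclei at 781, 968 and 684 CPM after sevoflurane and 874, 1048 and 813 CPM under oxygen. A UMI of Col25a1 was found in 70.9% of dentate granule-like nuclei. Vascular leptomeningeal-like nuclei held 687 CPM ± 379 of Col25a1, with libraries from 43.9 to 1093 CPM that overlap the inhibitory-like ones. Col23a1 led in vascular leptomeningeal-like nuclei at 552 CPM ± 292, with ependymal-like nuclei next at 134 ± 70.0, and Col13a1 was at 84.9 ± 34.9 in the leptomeningeal class and at 5.91 CPM or less elsewhere.

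Type VI filaments need the chains of Col6a1, Col6a2 and a further chain such as Col6a3. All 3 were highest in vascular leptomeningeal-like nuclei, at 59.0 CPM ± 23.8, 45.5 ± 23.6 and 29.8 ± 11.5 (SD, n = 6 each), although Col6a1 was about as high in CA3 pyramidal-like nuclei at 56.1 ± 11.8. Col6a5, an alternative to Col6a3, was highest in ependymal-like nuclei at 58.5 CPM ± 17.9, and the next class stood at 3.32 CPM. Of the types XV and XVIII, which sit at the outer face of basement membranes, Col15a1 was highest in microglia-like nuclei at 46.7 CPM ± 12.6 and Col18a1 in vascular leptomeningeal-like nuclei at 34.6 ± 9.65, with choroid plexus-like nuclei overlapping at 30.6 ± 8.58.

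Short-chain collagens marked the ventricle side. Col8a1 stood in choroid plexus-like nuclei at 1638, 1996 and 1796 CPM in the 3 oxygen libraries, and 97.7% of these nuclei held a UMI, against 0.275% of oligodendrocyte-like nuclei with a median depth of 2282 UMIs against 4861. Pericyte-like nuclei followed at 102 CPM ± 39.8 and vascular leptomeningeal-like nuclei at 68.3 ± 36.4. Col8a2 had 123, 111 and 123 CPM in choroid plexus-like nuclei and 93.4 CPM ± 26.7 in ependymal-like nuclei, with overlap. Col26a1, a little studied collagen first described in testis and ovary, was highest in vascular leptomeningeal-like nuclei at 125 CPM ± 75.5, then in ependymal-like nuclei at 64.6 ± 22.6 and inhibitory-like nuclei at 60.1 ± 15.8, and had no UMI in 175 choroid plexus-like nuclei, which allows a share of up to 1.71% of nuclei with a UMI.

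Sevoflurane against oxygen asked whether the anaesthetic, beyond the raised oxygen, moved these genes. Counts were summed per library and compared with edgeR's quasi-likelihood test, with Benjamini-Hochberg adjustment over all genes tested in a set and a call at an adjusted p under 0.05. Over all nuclei, 1 of 44 collagen genes was called, Col26a1, higher after sevoflurane, where 2.01% of all 20777 genes were called. Of the 44, 32 had a negative log2 change, with a median of -0.24 against 0.01 for all genes tested, and 15 had an unadjusted p under 0.05. The share of all genes with such a p was not counted, here or beside the counts of unadjusted p-values below. The 5 genes highest in the choroid plexus-like nuclei that only the oxygen libraries held, Col8a1, Col4a3, Col8a2, Col9a3 and Col4a4, had log2 changes of -2.87, -1.42, -0.95, -0.78 and -0.05 in this sum. None of the 5 was called by edgeR, while DESeq2 called Col8a1, Col8a2 and Col4a3. In summed nuclei, fewer cells of a type and less RNA per cell cannot be told apart.

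Within the 12 classes that had at least 20 nuclei in every library, 39 collagen genes were tested in at least 1 class, giving 183 pairs of gene and class. The test called 6 of these pairs, 3.28%, against 1.99% of all 137633 gene and class pairs, and 26 had an unadjusted p under 0.05. The 6 calls fell on 4 genes, 5 higher and 1 lower. In endothelial-like nuclei 2 of 2 tested collagen genes were called (2.14% of all genes), in astrocyte-like 1 of 18 (2.14%), in ependymal-like 1 of 13 (0.861%), in inhibitory-like 1 of 21 (1.72%) and in subicular or cortical excitatory-like nuclei 1 of 27 (1.24%). In the other 7 classes edgeR called no collagen gene. They were CA1 pyramidal-like with 20 genes tested (1.93% of all genes called), CA3 pyramidal-like with 20 (1.67%), dentate granule-like with 27 (4.57%), Cajal-Retzius-like with 3 (9.38%), microglia-like with 3 (0.357%), oligodendrocyte precursor-like with 15 (0%) and oligodendrocyte-like with 14 (0.881%). In Cajal-Retzius-like nuclei the calls over all genes numbered 444, and 4 without cluster 31, which only the sevoflurane libraries held in numbers. Unadjusted p-values under 0.05 numbered 2, 0, 2, 0, 1, 2 and 1 in these classes in the same order, and DESeq2 called 0 collagen genes in each. On simulated counts for endothelial-like nuclei the test recovered 39.1% of 2-fold and 8.2% of 1.5-fold differences, and for dentate granule-like nuclei 82.1% and 39.4%.

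**Figure D2:**
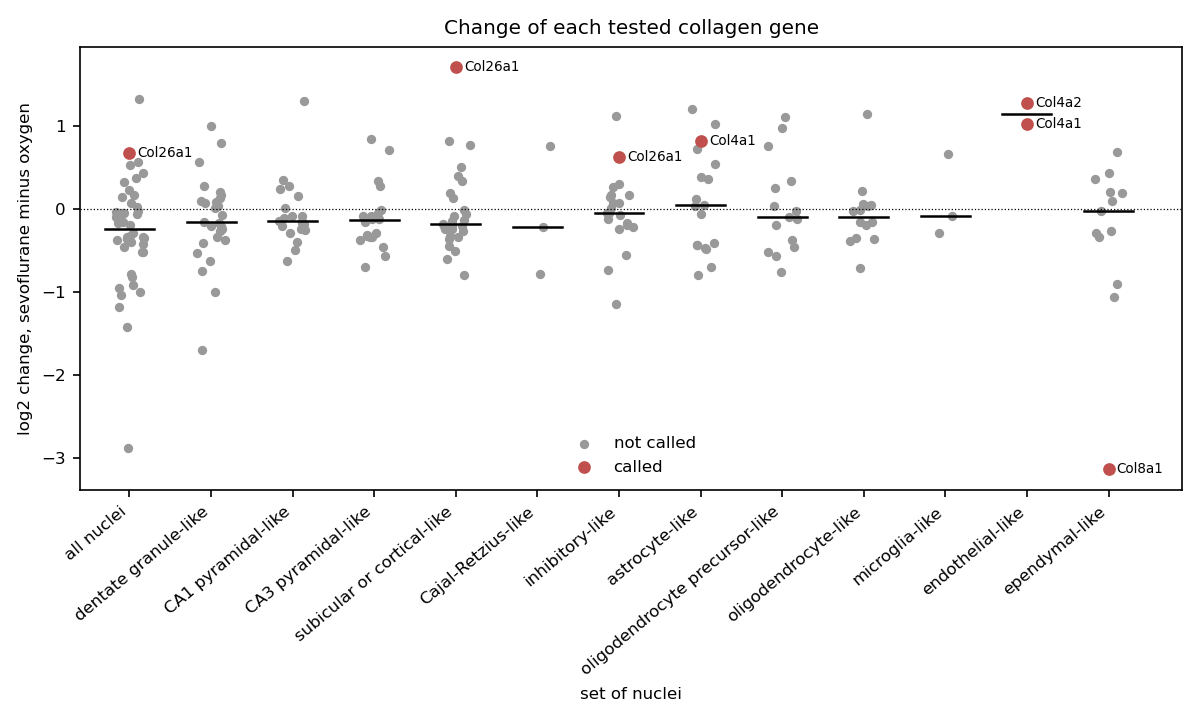
Change of each tested collagen gene in all nuclei and in the 12 tested classes, as log2 change, sevoflurane minus oxygen (vertical axis). Each point is a gene, the black bar is the median of the set, and red points are genes called at an adjusted p under 0.05, which are Col26a1 in 3 sets, Col4a1 in 2, Col4a2 in endothelial-like and Col8a1 in ependymal-like nuclei.

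Endothelial-like nuclei had about 2-fold more of both main type IV chains after sevoflurane. For Col4a1 every sevoflurane library (693, 386 and 559 CPM) lay above every oxygen library (234, 309 and 244 CPM). The log2 change was 1.02 (SE 0.25, adjusted p = 0.0191, edgeR). Col4a2, at 429, 499 and 646 CPM against 201, 292 and 179 CPM, was likewise separated, with a log2 change of 1.28 (SE 0.25, adjusted p = 0.00257). A UMI of Col4a1 was present in 58.9% of sevoflurane and 43.7% of oxygen nuclei, and one of Col4a2 in 68.5% and 37.7%, at median depths of 2307 and 2485 UMIs. These values rest on 21, 86 and 141 nuclei after sevoflurane and 113, 47 and 71 under oxygen. The Col4a1 call ended without sevoflurane library 3 (adjusted p = 0.125) or oxygen library 1 (0.0933), and the Col4a2 call without sevoflurane library 3 (0.0832). With at least 1000 UMIs and at most 1% mitochondrial UMIs per nucleus, the class had too few nuclei for a test.

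Marker levels around that comparison were as follows. The summed endothelial markers in these nuclei were 14620 to 18810 CPM after sevoflurane and 16440 to 21410 CPM under oxygen. The 9 pericyte markers, with Rgs5 at 1278 to 2395 CPM, summed to 2728 to 2984 CPM and 2839 to 3807 CPM. The 8 smooth muscle markers summed to 49.0 to 83.8 CPM after sevoflurane, with 1 marker at 0, and to 85.3 to 223 CPM under oxygen, with 2 at 0. The 12 choroid markers summed to 81.7 to 110 CPM after sevoflurane, with 4 at 0, and to 218 to 1409 CPM under oxygen, with 2 at 0, while choroid plexus-like nuclei themselves held 4.24 CPM of Col4a1. A small subcluster led by Eln, Bmx and Mgp held 0, 0 and 1 nuclei after sevoflurane and 4, 4 and 13 under oxygen. In the larger subcluster alone Col4a1 stood at 729, 401 and 576 CPM against 239, 328 and 303 CPM, and Col4a2 at 434, 515 and 653 CPM against 208, 315 and 249 CPM, so the groups stayed apart without the small one.

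A second group of vessel nuclei, left unnamed because the pericyte gene Rgs5 led a cluster rich in endothelial markers, gave calls for both genes in nuclei of its own (29, 44 and 40 after sevoflurane and 48, 39 and 33 under oxygen). This set was added after the data had been seen. Col4a1 stood there at 900, 510 and 593 CPM after sevoflurane and 325, 370 and 309 CPM under oxygen, and Col4a2 at 600, 492 and 489 CPM against 229, 249 and 236 CPM. Log2 changes were 0.98 (SE 0.21, adjusted p = 0.008) and 1.14 (SE 0.19, adjusted p = 0.000819), where 4.17% of genes were called. With these clusters added to the endothelial-like class the changes were 1.03 (adjusted p = 0.00655) and 1.24 (adjusted p = 0.000304), where 3.33% of genes were called.

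Col4a5, a chain of another type IV network, went the other way in the Rgs5-led cluster. It had 0, 11.2 and 34.7 CPM after sevoflurane and 56.5, 72.7 and 68.6 CPM under oxygen. The groups did not overlap, and the log2 change was -1.79 (SE 0.46, adjusted p = 0.0269). Over endothelial-like and Rgs5-led nuclei together it was -1.77 (SE 0.45, adjusted p = 0.0277). Col4a5 lies on the X chromosome, and the library at 0 CPM was the sevoflurane library of female pattern. The part of sex in this difference was not tested. Col4a5 had too few UMIs for a test in endothelial-like nuclei alone.

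**Figure D3:**
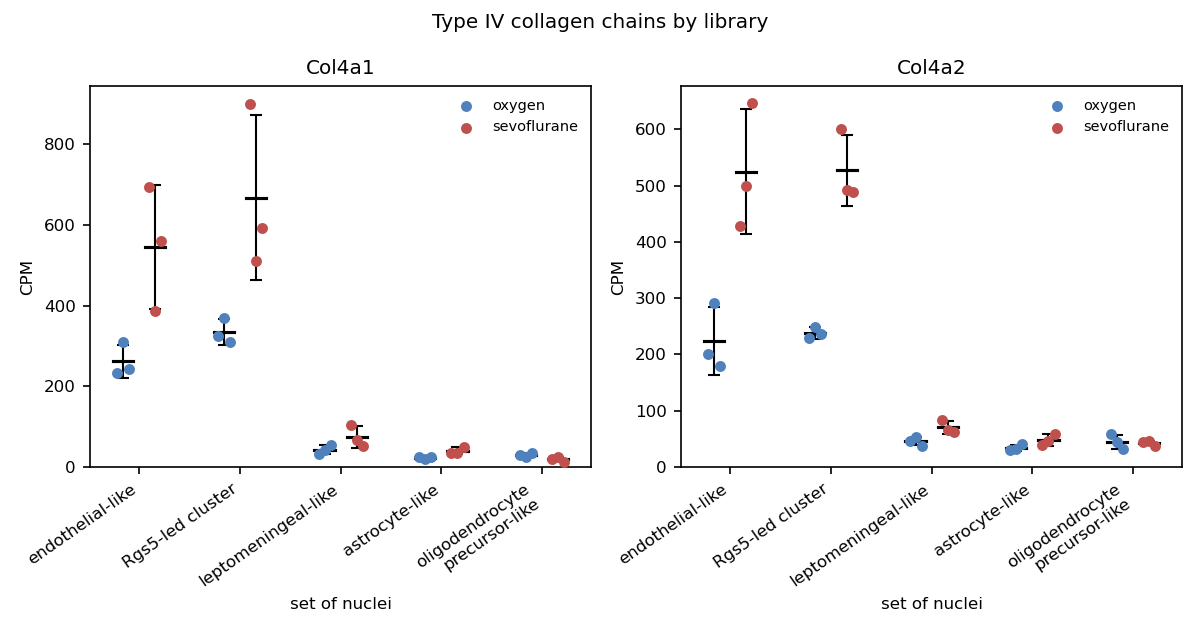
Col4a1 (left) and Col4a2 (right) in CPM by library in 5 sets of nuclei, with points for libraries, black bars for the mean and error bars for the SD (n = 3 per group). Sevoflurane points lie above oxygen points in endothelial-like nuclei and in the Rgs5-led cluster for both genes, while Col4a1 in oligodendrocyte precursor-like nuclei is higher under oxygen.

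Fibroblast-type and glial neighbours of the vessel were examined next. In vascular leptomeningeal-like nuclei no gene of 6903 was called (0%) by edgeR, 3 of 20 collagen genes had an unadjusted p under 0.05, and no other tool was run. There Col4a1 and Col4a2 had log2 changes of 0.64 and 0.63, each with an adjusted p of 1, on 17 to 153 nuclei per library. In astrocyte-like nuclei Col4a1 stood at 35.8, 34.6 and 50.8 CPM after sevoflurane and 24.7, 20.3 and 25.2 CPM under oxygen, without overlap. The log2 change was 0.82 (SE 0.19, adjusted p = 0.0314, edgeR). Col4a2 in astrocyte-like nuclei had 39.8, 45.5 and 59.1 CPM against 29.8, 31.2 and 40.4 CPM, which overlap, and was not called (log2 change 0.54, adjusted p = 0.144). The Col4a1 call ended without sevoflurane library 3 (adjusted p = 0.143) and without each oxygen library (0.089 to 0.199). It also ended with DESeq2 (0.0685) and with at least 1000 UMIs and at most 1% mitochondrial UMIs per nucleus (0.0604).

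Astrocyte-like nuclei also held vessel markers. The 14 endothelial markers summed to 483 to 570 CPM after sevoflurane and 492 to 674 CPM under oxygen, none at 0, and the 9 pericyte markers to 171 to 233 CPM and 150 to 176 CPM. Their part in the Col4a1 difference was not tested. Oligodendrocyte precursor-like nuclei had Col4a1 at 20.3, 24.6 and 13.6 CPM after sevoflurane and 29.98, 25.05 and 34.7 CPM under oxygen, a log2 change of -0.57 that was not called (adjusted p = 0.522). Over all nuclei Col4a1 and Col4a2 had log2 changes of 0.03 and -0.04.

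Inhibitory-like nuclei had more Col26a1 after sevoflurane. The 3 sevoflurane libraries held 85.4, 68.0 and 65.9 CPM and the 3 oxygen libraries 47.5, 45.9 and 48.0 CPM, without overlap. The log2 change was 0.63 (SE 0.11, adjusted p = 0.0077, edgeR), on 426, 313 and 397 UMIs against 253, 220 and 241. A UMI of Col26a1 was seen in 39.0% of sevoflurane and 26.3% of oxygen nuclei of this class, at median depths of 8655.5 and 9091, and in 0.246% of oligodendrocyte-like nuclei. The call ended without oxygen library 2 (adjusted p = 0.0507).

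The inhibitory class was made of 3 clusters, and edgeR called Col26a1 in 1 of them, tested after the data had been seen. In cluster 1, led by Kcnmb2 and Nxph1, Col26a1 stood at 118, 92.0 and 79.0 CPM after sevoflurane and 64.4, 56.7 and 57.9 CPM under oxygen, and the log2 change was 0.68 (adjusted p = 0.0238, where 0.942% of genes were called). In cluster 2, led by Fgf13 and Erbb4, it was 1.06 (adjusted p = 0.0524, 1.6% called), and in cluster 3, led by Adarb2, 0.41 (adjusted p = 0.389, 0.54% called). In both of these, too, every sevoflurane library lay above every oxygen library. Cluster 1 made up 48.0% to 57.3% of the class after sevoflurane and 50.3% to 54.7% under oxygen.

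Subicular or cortical excitatory-like nuclei had less Col26a1 in absolute terms, and it was higher after sevoflurane there too. They held 6.02, 3.66 and 6.501 CPM after sevoflurane and 1.75, 0.975 and 2.33 CPM under oxygen, from 59, 18 and 65 UMIs against 13, 9 and 22. The log2 change was 1.71 (SE 0.33, adjusted p = 0.0395, edgeR). Most of these UMIs came from cluster 15, led by 9330185C12Rik, Plch1 and Fermt1. Its levels were 25.8, 36.5 and 37.7 CPM against 8.14, 6.23 and 9.42 CPM, with a log2 change of 1.95 (SE 0.30, adjusted p = 0.0151), where 0.0505% of genes were called. Cluster 15 made up 11.4%, 3.96% and 10.2% of the class after sevoflurane and 12.3%, 8.23% and 17.6% under oxygen. The 14 inhibitory markers summed to 278 to 336 CPM and 240 to 336 CPM in the class, with Gad1 at 16.6 to 24.3 CPM and 12.5 to 21.8 CPM. The call in the whole class ended when sevoflurane library 1 or 3 or any oxygen library was left out (adjusted p = 0.0791 to 0.14), and DESeq2 gave no adjusted p for it.

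Over all nuclei Col26a1 stood at 11.4, 10.9 and 9.75 CPM after sevoflurane and 7.42, 5.53 and 7.15 CPM under oxygen, with a log2 change of 0.67 (SE 0.13, adjusted p = 0.0498). This value moved with an unnamed cluster led by Ano1, which held 164, 214 and 179 nuclei after sevoflurane and 11, 13 and 17 under oxygen and supplied 118, 163 and 85 of the Col26a1 UMIs against 8, 3 and 5. Without it the change over all nuclei was 0.45 (adjusted p = 0.13), and the call also ended without any single library (adjusted p = 0.0677 to 0.122). A further setting drew equal numbers of nuclei per library from each named class, which also left out this cluster. There edgeR called Col26a1, among 714 genes called. In the Ano1-led cluster itself the levels overlapped, at 81.5, 91.0 and 47.2 CPM against 88.9, 23.5 and 39.0 CPM. Ependymal-like nuclei had Col26a1 at 104, 71.6 and 65.3 CPM against 40.3, 61.0 and 45.6 CPM and were not called (log2 change 0.69, adjusted p = 0.354). Mossy-like nuclei, too few for a planned test, had 30.7, 50.3 and 38.1 CPM against 41.1, 24.9 and 38.2 CPM, which overlap.

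**Figure D4:**
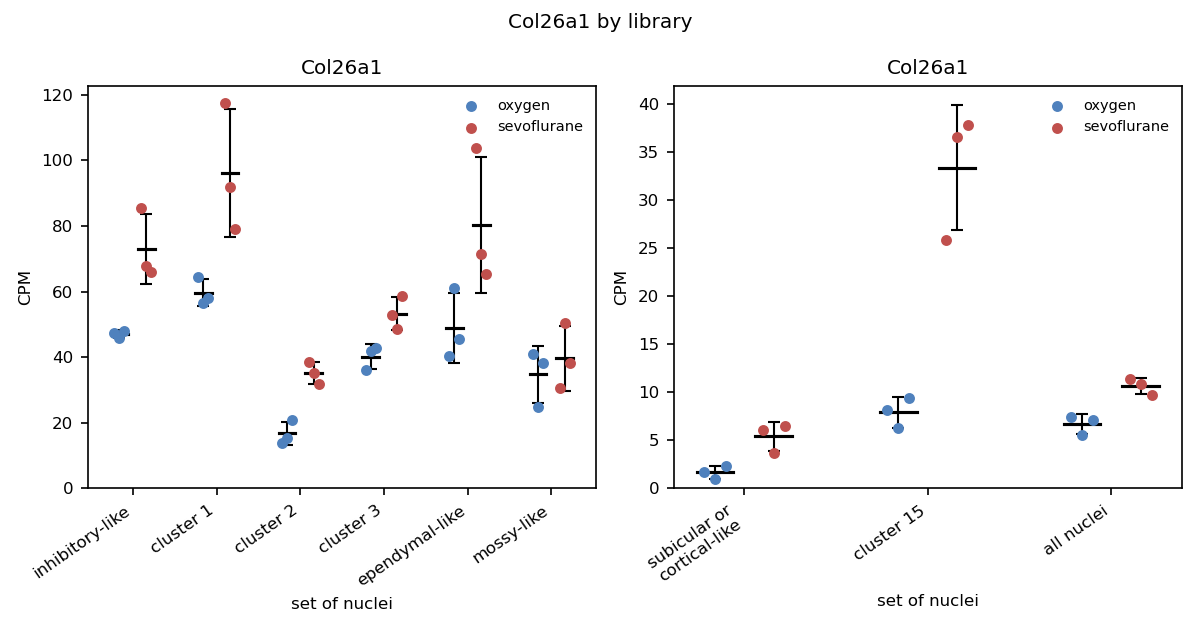
Col26a1 in CPM by library, with points for libraries, black bars for the mean and error bars for the SD (n = 3 per group). The left panel shows inhibitory-like nuclei, their clusters 1 to 3, ependymal-like and mossy-like nuclei, and the right panel, on its own scale, shows subicular or cortical excitatory-like nuclei, their cluster 15 and all nuclei. Sevoflurane points lie above oxygen points in each set drawn except mossy-like nuclei.

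Over all nuclei Col8a1 had 85, 93 and 225 UMIs after sevoflurane and 709, 417 and 1263 under oxygen, of which 492, 162 and 889 lay in choroid plexus-like nuclei. The log2 change of -2.87 was not called by edgeR (adjusted p = 0.0716). Ependymal-like nuclei, the ciliated lining of the ventricle, gave the only call toward lower levels among the classes. They had Col8a1 at 0, 1.70 and 15.7 CPM after sevoflurane and 71.3, 38.1 and 32.6 CPM under oxygen, from 0, 1 and 6 UMIs against 23, 15 and 10. The log2 change was -3.14 (SE 0.65, adjusted p = 0.0197, edgeR).

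The choroid gene Ttr and the sum of the 12 choroid markers differed without overlap beside that result, while Folr1, Htr2c and Otx2 overlapped between the groups. The remaining markers of the list are not given singly. In ependymal-like nuclei Ttr, a very abundant choroid transcript, stood at 14.2, 22.6 and 2.63 CPM after sevoflurane and at 250, 116 and 582 CPM under oxygen, and the 12 choroid markers summed to 318 to 334 CPM and 382 to 1011 CPM, with 1 marker at 0 in each group. Folr1 stood at 23.6 to 54.4 CPM against 42.2 to 58.03 CPM, Htr2c at 10.5 to 47.3 CPM against 12.2 to 22.8 CPM, and Otx2 at 42.6 to 57.8 CPM against 21.4 to 94.2 CPM. Col9a3, which is also high in choroid plexus-like nuclei, stood in ependymal-like nuclei at 33.0, 27.3 and 18.3 CPM against 34.1, 30.5 and 32.6 CPM. The ependymal gene Foxj1 stood at 99.2 to 105 CPM and 82.8 to 120 CPM. The part of choroid RNA or choroid nuclei in the Col8a1 difference was not tested. The call ended without sevoflurane library 2 (adjusted p = 0.149), oxygen library 1 (0.171) or oxygen library 2 (0.0646), and DESeq2 gave no adjusted p. Without sevoflurane library 3 the log2 change was -5.20 (adjusted p = 0.00136).

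Outside ependymal-like nuclei edgeR with its low count filter and no replicate block called Col8a1 in no set of all 6 libraries. DESeq2 called it in subicular or cortical excitatory-like nuclei, edgeR without the filter called it there and in endothelial-like nuclei, and leaving out sevoflurane library 3 gave a call in dentate granule-like nuclei. Vascular leptomeningeal-like nuclei had 20.8, 65.9 and 29.3 CPM against 86.7, 109 and 97.5 CPM, which do not overlap (log2 change -1.67, SE 0.38, adjusted p = 0.288). Their subcluster led by Bnc2, where oxygen libraries held 128 to 378 CPM, had 8, 0 and 52 nuclei after sevoflurane and 32, 27 and 40 under oxygen. Subicular or cortical excitatory-like nuclei had 5.31, 9.36 and 9.60 CPM against 12.3, 15.2 and 13.8 CPM (log2 change -0.79, adjusted p = 0.107). The choroid markers summed to 145 to 165 CPM and 189 to 485 CPM in that class. Pericyte-like nuclei had 46.0, 81.3 and 167 CPM of Col8a1 against 113, 101 and 104 CPM, which overlap.

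**Figure D5:**
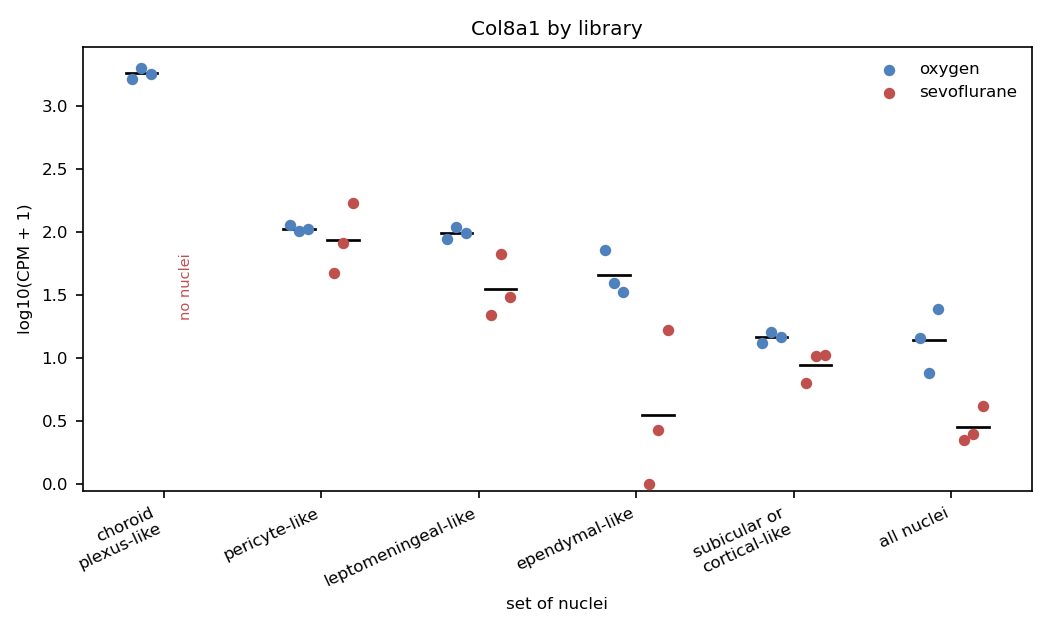
Col8a1 by library on a log10(CPM + 1) axis in 5 classes and in all nuclei, with points for libraries and a black bar for the mean of the plotted values. Choroid plexus-like nuclei have oxygen points only, and the sevoflurane points lie below the oxygen points in ependymal-like, vascular leptomeningeal-like and subicular or cortical excitatory-like nuclei and in all nuclei, but not in pericyte-like nuclei.

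Several other members had groups without overlap and missed the threshold in the main edgeR fits. The share of all genes without overlap was not counted, so the lack of overlap does not show that these members changed. DESeq2 called Col19a1 in inhibitory-like nuclei and Col6a3 over all nuclei. EdgeR without the low count filter called Col19a1 and Col14a1 in inhibitory-like nuclei, Col1a2 in dentate granule-like nuclei and Col6a3 over all nuclei. With the filter, edgeR called Col6a3 under the stricter limits on nuclei and without the low-UMI cluster. It also called Col14a1 in inhibitory-like nuclei without oxygen library 1, and Col1a2 in dentate granule-like nuclei without sevoflurane library 3. Col19a1 in inhibitory-like nuclei, at 621, 564 and 605 CPM against 682, 709 and 725 CPM, had a log2 change of -0.24 (SE 0.07, adjusted p = 0.102). Within cluster 2 of that class, tested after the data had been seen, it was lower after sevoflurane at 129, 90.8 and 106 CPM against 155, 188 and 152 CPM (log2 change -0.60, adjusted p = 0.0462). Col14a1, a fibril-associated collagen below 20 CPM in every class and singled out after its values were seen, stood in inhibitory-like nuclei at 6.62, 7.17 and 9.46 CPM against 12.01, 25.8 and 14.2 CPM (log2 change -1.14, adjusted p = 0.0912). Col15a1 in microglia-like nuclei stood at 57.4, 60.5 and 55.1 CPM against 32.6, 41.7 and 32.7 CPM (log2 change 0.67, adjusted p = 0.355).

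Col11a2 in astrocyte-like nuclei was at 53.3, 56.3 and 62.0 CPM after sevoflurane and 90.02, 77.7 and 64.5 CPM under oxygen (log2 change -0.43, adjusted p = 0.161). Col1a2 in dentate granule-like nuclei was at 0.135 to 1.29 CPM across libraries (log2 change -1.69, adjusted p = 0.0659). Col6a3 over all nuclei was at 3.29, 3.49 and 2.43 CPM against 1.297, 0.792 and 1.60 CPM (log2 change 1.33, adjusted p = 0.0525), and the Ano1-led cluster supplied 153, 149 and 90 of its 221, 213 and 174 sevoflurane UMIs and 19, 5 and 15 of its 68, 50 and 85 oxygen UMIs.

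To compare classes directly, the log2 level in each of the other 11 tested classes was subtracted from that in dentate granule-like nuclei, the largest class, within each library. These differences were compared between sevoflurane and oxygen libraries with limma. None of 128 collagen gene and class pairs was called, 13 had an unadjusted p under 0.05, and 0.188% of all pairs of genes and classes were called. For Col4a2 the dentate change was lower than the endothelial one by a log2 difference of -1.28 (SE 0.30, adjusted p = 0.282), and for Col4a1 by -0.85 (adjusted p = 0.536). Of the 223 calls over all genes, 218 lay in the contrast with Cajal-Retzius-like nuclei, where cluster 31 differed in number between the groups. Col23a1 in dentate granule-like minus Cajal-Retzius-like nuclei had a difference of 1.199 (SE 0.302, adjusted p = 0.0608). On simulated counts this test recovered 4.76% of 2-fold and 87.5% of 4-fold differences between dentate granule-like and endothelial-like nuclei, so a 2-fold difference in that contrast would mostly have been missed. The other contrasts were not simulated.

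Genes that fold, export, cleave, crosslink or bind collagen were read from 4 lists of 69 genes in the same fits, of which 64 were tested in at least 1 class. The test called 13 of 442 gene and class pairs, 2.94%, against 1.99% of all gene and class pairs, with 8 higher and 5 lower after sevoflurane. The median log2 change over all nuclei was -0.06 for the 20 genes of chain processing and folding, -0.003 for the 17 tested genes of export, cleavage and crosslinking, -0.07 for the 12 tested receptors and -0.23 for the 18 basement membrane partners, beside 0.01 for all genes.

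Pcolce2, an enhancer of procollagen cleavage, was higher after sevoflurane in dentate granule-like nuclei at 27.1, 22.7 and 26.2 CPM against 12.6, 13.1 and 15.3 CPM (log2 change 0.89, SE 0.11, adjusted p = 0.00314). Of that class, cluster 10, with a median of 5019 UMIs and 0.422% mitochondrial UMIs against 7463 and 0.205% in cluster 9, made up 26.8%, 46.4% and 12.2% after sevoflurane and 13.2%, 2.71% and 4.18% under oxygen. Its part in the Pcolce2 and Pxdn results of this class was not tested. Pcolce2 was also called in subicular or cortical excitatory-like nuclei (0.73, adjusted p = 0.0146), CA1 pyramidal-like nuclei (0.55, adjusted p = 0.0342) and all nuclei (0.49, adjusted p = 0.0429). Itga11, the alpha chain of a fibrillar collagen receptor, stood over all nuclei at 22.2, 20.1 and 21.4 CPM against 12.2, 13.001 and 15.1 CPM (log2 change 0.66, SE 0.10, adjusted p = 0.0278). It rose in inhibitory-like nuclei by 0.93 (adjusted p = 0.0181), in CA3 pyramidal-like nuclei by 0.83 (adjusted p = 0.0335) and in CA1 pyramidal-like nuclei by 0.69 (adjusted p = 0.0343). Leaving out single libraries left the Pcolce2 call in dentate granule-like nuclei in place (adjusted p = 0.00601 to 0.0218). Each of the others lost its call when at least 1 of the libraries was left out. Over all nuclei the adjusted p was 0.0749 to 0.108 for Pcolce2 and 0.0495 to 0.0889 for Itga11. In CA1 pyramidal-like nuclei it was 0.0387 to 0.15 for Pcolce2 and 0.0515 to 0.0988 for Itga11. The lower ends of 0.0495 and 0.0387 still passed the threshold. Pcolce2 in the subicular class lost its call without sevoflurane library 1 or any oxygen library (up to 0.0965), and Itga11 without oxygen library 1 or 2 in inhibitory-like nuclei (up to 0.0768) and without sevoflurane library 3 or any oxygen library in CA3 pyramidal-like nuclei (up to 0.128).

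Pxdn, the peroxidase that crosslinks type IV collagen, went in opposite directions in 2 classes. In oligodendrocyte-like nuclei it fell, at 14.9, 15.9 and 22.4 CPM against 34.6, 41.9 and 44.8 CPM (log2 change -1.18, SE 0.18, adjusted p = 0.009). In dentate granule-like nuclei it rose by 0.40 (adjusted p = 0.0495), with 63.5, 57.3 and 51.5 CPM against 40.7, 48.0 and 41.3 CPM. P4ha1, a subunit of the prolyl hydroxylase that stabilises the helix, fell in oligodendrocyte-like nuclei by 0.73 on the log2 scale (adjusted p = 0.0221), and Adamts2, which trims procollagen, fell in CA3 pyramidal-like nuclei by 0.83 (adjusted p = 0.0364). Calls ended without oxygen library 2 for Pxdn in oligodendrocyte-like nuclei (adjusted p = 0.0667), without any library but sevoflurane 3 for Pxdn in dentate granule-like nuclei (up to 0.183), without sevoflurane library 1 or oxygen library 1 or 2 for P4ha1 (up to 0.148), and without any single library for Adamts2 (0.0573 to 0.144).

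Of the basement membrane partners, Lama4, a laminin chain of vessel basement membranes, was lower in endothelial-like nuclei, where both type IV genes were higher. Its levels were 49.5, 39.1 and 36.5 CPM after sevoflurane and 106, 73.0 and 119 CPM under oxygen (log2 change -1.36, SE 0.35, adjusted p = 0.0321). In the Rgs5-led cluster Lama4 had a change of -0.50 and was not called (adjusted p = 0.401). The calcium-binding matrix genes Smoc2 and Smoc1 were called in CA3 pyramidal-like nuclei (-0.50, adjusted p = 0.0115) and in Cajal-Retzius-like nuclei (2.14, adjusted p = 0.0474). Smoc1 rested there on 49.2, 56.3 and 56.7 CPM against 0, 24.4 and 0 CPM, in a class whose cluster 31 was found almost only after sevoflurane. Without cluster 31 the partner calls over all classes numbered 12. The Lama4 call ended without sevoflurane library 2 or 3 or oxygen library 1 or 3 (adjusted p = 0.104 to 0.228), the Smoc2 call without oxygen library 3 (0.0701), and the Smoc1 call without oxygen library 1 or 3 (0.123 and 0.184).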

How the data were processed

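Nuclei of 6 hippocampus libraries were profiled with the 10x 3' v3.1 chemistry, per the labels' protocols. The authors used fastp and Cell Ranger 7.1.0 with mm10, per the submitters' processing notes, and deposited raw UMI counts per gene and barcode; whether intronic reads were counted is not given in the sources used here. From these, barcodes with at least 500 UMIs, 300 genes and at most 5% mitochondrial UMIs were kept. Doublets were called with Scrublet in scanpy 1.11.5 at a common threshold of 0.3, since its automatic threshold failed in 1 library. Nuclei were clustered (Leiden, 40 components, resolution 1.0, vessel nuclei again at 0.5) without collagen genes and named from 21 marker lists; a marker had to reach 10 CPM and 2-fold over other nuclei, and 3 markers were needed for a name. Counts were summed per library and class, scaled by TMM (marker sums and levels of single clusters outside tests use plain UMI totals) and tested with edgeR 4.0.16 after its filterByExpr filter. Differences between classes were tested with limma 3.58.1 (prior count 2). DESeq2 1.42.0, RLE scaling, no filter, leaving out each library, stricter nuclei, kept doublets and a gene span offset were alternatives. The tests were tried on simulated data, where false calls made up 3.4% to 5% of edgeR calls. The simulated counts were drawn independently at the fitted dispersion trend, without batch effects or shifts in cluster make-up. This share therefore does not measure false calls in the real data.

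The collagen genes, partner lists and tests were chosen with earlier results of these data known. Genes were named where called or where they reached 20 CPM in a class, with up to 4 called partners per list. Replicate numbers were not used to pair libraries in the main fits. Deviations of same-numbered libraries over all nuclei correlated at -0.207, -0.214 and -0.0638. Libraries of different numbers were not compared, so these values cannot decide whether the numbers pair libraries. Same-numbered libraries of the groups carried the same Sex label. The floor of a zero share was set at 3 counts, and shares of nuclei carry counting error. Genes overlapping on opposite strands at a shared start, such as Col4a1 and Col4a2, were counted by the authors' pipeline and were not recounted.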

Additional observations from a re-analysis of the deposited data

Results flagged for a closer look

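Col4a1 had opposite signs between classes with every library on its own side. Its log2 change was 1.02 in endothelial-like and 0.82 in astrocyte-like nuclei, where every sevoflurane library lay above every oxygen library, and -0.57 in oligodendrocyte precursor-like nuclei, where every sevoflurane library (13.6 to 24.6 CPM) lay below every oxygen library (25.05 to 34.7 CPM). The difference between these classes was not tested. Dentate granule-like nuclei minus oligodendrocyte precursor-like nuclei gave 0.74 for Col4a1 (SE 0.27, adjusted p = 0.7, limma).

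Clusters that got no name entered no class comparison. The 4 collagen levels given here were picked because every sevoflurane library lay above every oxygen library. Levels lower after sevoflurane were not listed, although Col4a5 in the Rgs5-led cluster was lower, as given above. Col4a1 in that cluster was also higher without overlap and is not among the 4. The number of pairs of gene and cluster searched and the share of all genes without overlap are not given. The 4 levels therefore do not show that collagen genes rose in these clusters as a set. In the Ano1-led cluster 26 Col23a1 had a mean of 109 CPM after sevoflurane (180, 88.2 and 58.3) and 33.4, 0 and 39.0 CPM under oxygen, where only 11 to 17 nuclei per library were found. In cluster 32, led by 9630013A20Rik, Bcas1 and Enpp6, genes of newly forming oligodendrocytes, Col25a1 had a mean of 65.6 CPM (98.1, 58.9 and 39.9) against 4.46, 14.3 and 20.1 CPM. In the same cluster Col5a3 had a mean of 28.3 CPM (32.7, 16.8 and 35.4) against 13.4, 0 and 0 CPM. In the Rgs5-led cluster 37 Col4a2 had a mean of 525 CPM (589, 491 and 494) against 225, 254 and 238 CPM. These levels of single clusters are scaled by their plain UMI totals, which is why they differ a little from the TMM-scaled values above.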

How the results depend on the processing

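Over all nuclei the count of 1 called collagen gene became 7 with DESeq2 (2 higher, 5 lower) and 2 without the low count filter or without the low-UMI cluster. It became 0 with the gene span offset, with kept doublets, without the Ano1-led cluster, and with the replicate block and span offset together. It was also 0 without choroid plexus-like nuclei. That setting left out the Ano1-led cluster too, because the cluster reached 3 choroid markers. With equal numbers of nuclei per named class the count stayed at 1, Col26a1. Leaving out single libraries gave 0 to 0 calls there, 3 to 7 in place of 6 over the classes and 4 to 13 in place of 13 for the partner genes. Without the low count filter the counts were 14 and 35. With at least 1000 UMIs and at most 1% mitochondrial UMIs, 9 classes could be tested and 2 collagen pairs were called. Endothelial-like, ependymal-like and Cajal-Retzius-like nuclei were then too few, so the Col4a1, Col4a2 and Col8a1 calls in endothelial-like and ependymal-like nuclei were not checked under these limits. The median mitochondrial share was 1.31% in the larger endothelial-like subcluster, 1.81% in the Rgs5-led cluster and 1.37% in ependymal-like nuclei. The replicate block gave 1 call over all nuclei (Col8a1 in place of Col26a1), 5 over the classes and 7 for the partners, and 3 for the partners with the span offset. Of the 5 over the classes, 1 was not a call of the main fits, Col23a1 in ependymal-like nuclei. That gene was also called there without the low count filter and without sevoflurane library 3. Under the block the Col4a1 call in endothelial-like nuclei (adjusted p = 0.112) and the Col8a1 call in ependymal-like nuclei (0.071) ended, and the Col26a1 calls in the inhibitory-like and subicular classes held. No response difference between classes was called under any alternative. No direction of a called gene reversed under the alternatives run. The number of genes at the level of the map ranged from 33 to 38, over settings that include a level of 10 CPM in place of 20 CPM. The cause of these changes was not tested. Rare vessel, ependymal and Cajal-Retzius-like nuclei gave few UMIs per gene and library, which limits what could be detected there.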
